A study of Arabidopsis thaliana with 16 samples.

Results

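The comparison described here set HSFA2 KO cells against WT cells of Arabidopsis thaliana from hardware canisters labelled BRIC B, 1 in spaceflight and 1 on the ground, so that within each environment both genotypes shared a canister. It used the 10 of 16 arrays with BRIC B in their title: 3 of HSFA2 KO and 2 of WT cells in spaceflight, and likewise 3 of HSFA2 KO and 2 of WT cells on the ground. Of 22746 probe sets on the ATH1 array other than controls, 10494 had a mean MAS5 signal over 100 on these arrays and were tested. The MAS5 signal is the brightness of a probe set on a linear scale, with every array scaled to the same trimmed mean of about 500.1. The other 6 arrays were WT cells in canister BRIC A and are given as further WT values where named.

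HSFA2 KO cells came from hypocotyls of the T-DNA insertion line SALK_008978C and WT cells from hypocotyls of Col-0 plants, the background of both lines. All were undifferentiated cells, labelled 14 days old, that grew in the dark on nutrient agar plates and were fixed with RNAlater on day 10 in orbit or in ground hardware started 48 h later. Each genotype was 1 culture line, so the plates repeat the culture and not the mutation. WT plates sat in positions 1 and 2 of the canister and HSFA2 KO plates in positions 3 to 5, so position and genotype cannot be told apart. Of the 6 HSFA2 KO arrays, 3 are marked as a second replicate in their titles (B3-2 in spaceflight, B3-2 and B5-2 on the ground) and are called the second run here, although the labels do not say what set them apart, and no WT array of BRIC B is so marked. The ground arrays B3 and B3-2 bear the same plate number and position in their titles, while the source name of B3-2 gives position 4 and the study counts its HSFA2 KO arrays as separate plates. Whether they are 1 plate or 2 is not settled, and their correlation over the tested probe sets (r = 0.885) lay within the range of other pairs of 1 group (0.878 to 0.934).

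HSFA2 is a heat shock transcription factor that is made under heat and oxidative stress and keeps heat-inducible genes active during recovery. Its known targets in Arabidopsis include small heat shock proteins, which hold unfolded proteins in solution, and galactinol synthases, which start the synthesis of raffinose-type sugars. Proteins that enter the secretory pathway fold in the endoplasmic reticulum (ER) with the help of protein disulfide isomerases, and bZIP60 is a transcription factor of the response to unfolded protein there. No gene sequence is shown, since the signal of a probe set is the only measurement.

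HSFA2 (At2g26150) itself had signals of 169.7, 42.0 and 34.5 in HSFA2 KO cells in spaceflight, against 9045 and 9179.8 in WT cells. On the ground it had 7.38, 71.2 and 76.5 in HSFA2 KO cells, against 6291 and 3750.2 in WT cells. All 6 HSFA2 KO arrays were far below all 4 WT arrays. The mean signal in HSFA2 KO cells was 0.946% of that in WT cells (log2 fold change −7.17, SE 0.72, adjusted p = 0.00975 from limma). An exact permutation test of genotype within environment gave p = 0.01, two-sided, the smallest p that its 100 arrangements allow. The loss was of the same size in spaceflight (−7.18) and on the ground (−7.15), and the WT arrays of BRIC A had 6142, 4682 and 5748 in spaceflight and 4359.8, 2330.0 and 4126 on the ground. The size of the fold change rests on signals near the floor of the array in HSFA2 KO cells, and with 32 added to every signal it was −6.26.

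Across the tested probe sets, 439 (4.18%) had an adjusted p under 0.05 for genotype with environment as an additive term (limma, Benjamini-Hochberg), 250 (2.38%) higher and 189 (1.80%) lower in HSFA2 KO cells. Their median log2 fold change was 1.16 among the higher and −0.88 among the lower. The shares of 2.38% and 1.80% are the background for the counts in the gene lists below. The probe sets that fell were brighter, with a median signal of 2414 against 665 for those that rose and 376 for all that were tested. The HSFA2 KO and WT arrays did not overlap within either environment, in the same direction, for 1442 probe sets (13.7%), 763 higher (7.27%) and 679 lower (6.47%), among them 434 of the 439. The study's thresholds were a p under 0.01 and a difference of more than 1 log2 unit. Its methods name a Benjamini-Hochberg correction without saying whether that p is adjusted, and it was read here as unadjusted; with the adjusted p, 23 probe sets (0.219%) passed, 16 higher and 7 lower. With the unadjusted p the thresholds were met by 374 probe sets (3.56%), of which 285 (2.72%) were higher and 89 (0.848%) lower.

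**Figure D1:**
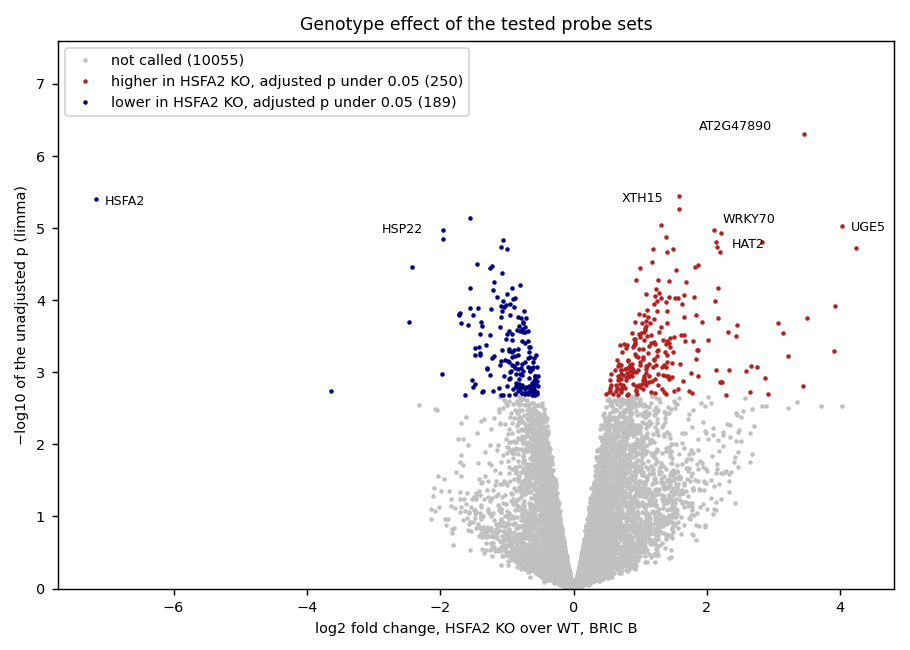
Log2 fold change of HSFA2 KO over WT cells in BRIC B (horizontal axis) against −log10 of the unadjusted p from limma (vertical axis) for 10494 probe sets. Red points are the 250 probe sets higher and blue points the 189 lower in HSFA2 KO cells at an adjusted p under 0.05; HSFA2 lies far to the left at −7.17.

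The number of calls at an adjusted p under 0.05 was not stable. With the ground arrays B3 and B3-2 averaged it was 286. It was 7 without both of them, 9 with array run as a term and 1, HSFA2, over the 7 first-run arrays. Each single array left out lowered it: to 78 without spaceflight HSFA2 KO array B3-2, 332 without B4 and 113 without B5, and to 320, 190 and 100 without ground HSFA2 KO array B3, B3-2 and B5-2. Without WT array B1 or B2 it was 107 or 147 in spaceflight and 141 or 103 on the ground. Under each of these settings all 439 kept their sign, and all 439 had an unadjusted p under 0.05 over the first-run arrays alone. The 439 were chosen on the same arrays, so both outcomes are largely built into the choice and do not test the direction. The count by the study's thresholds with the unadjusted p ranged from 265 to 407 under the same 4 changes of arrays and run. Centring each array on its median, which moved the median log2 fold change of all probe sets from 0.047 to −0.063, gave 180 higher and 337 lower at an adjusted p under 0.05. By the study's thresholds it gave 199 higher and 145 lower, and quantile normalization gave 214 and 113, in place of 285 and 89.

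Several heat-inducible genes fell in HSFA2 KO cells. HSP22 (At4g10250), a small heat shock protein of the endomembrane system, had 4525, 4821 and 5236 in HSFA2 KO cells in spaceflight, against 16379 and 15674 in WT cells. On the ground it had 3140.2, 3838 and 1719.8 in HSFA2 KO cells, against 11807 and 13328 in WT cells. The HSP22 signal averaged 3880.0 ± 1293 in HSFA2 KO cells and 14297 ± 2111 in WT cells (SD, n = 6 and 4 arrays) (log2 fold change −1.96, SE 0.23, adjusted p = 0.00975 from limma, on the means of log2 signals). HSP21 (At4g27670), the chloroplast small heat shock protein that carries heat memory, had 18902, 13202 and 15434 in HSFA2 KO cells in spaceflight, against 32921 and 43323 in WT cells. On the ground it had 10418, 16490.2 and 6109, against 28744 and 30137 in WT cells (log2 fold change −1.40, SE 0.27, adjusted p = 0.0289). Both sets of arrays were apart in both environments, and the ground array B5-2 was the lowest HSFA2 KO array for HSP22 and HSP21.

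GOLS1 (At2g47180), a galactinol synthase, had 3964, 5628 and 4278 in HSFA2 KO cells in spaceflight, against 9571 and 7327 in WT cells, and 2281, 3644 and 1909.8 on the ground, against 7013 and 8036 (log2 fold change −1.23, SE 0.24, adjusted p = 0.0317 from limma). HSA32 (At4g21320), a heat-stress-associated protein needed for long-lasting acquired thermotolerance, had 2456, 3201 and 2688 in HSFA2 KO cells in spaceflight, against 4929.7 and 4571, and 1254, 2229.6 and 2025 on the ground, against 5346 and 4190.1 (log2 fold change −1.09, SE 0.22, adjusted p = 0.0332). Their differences were larger on the ground (−1.58 and −1.41) than in spaceflight (−0.87 and −0.78), although no probe set passed the test of that difference. Of the 9 tested genes in the list of HSFA2 targets and heat memory, 4 passed, all lower (HSP22, HSP21, GOLS1 and HSA32), all 9 had a negative log2 fold change and the median was −1.03, beside 0.047 over all tested probe sets.

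**Figure D2:**
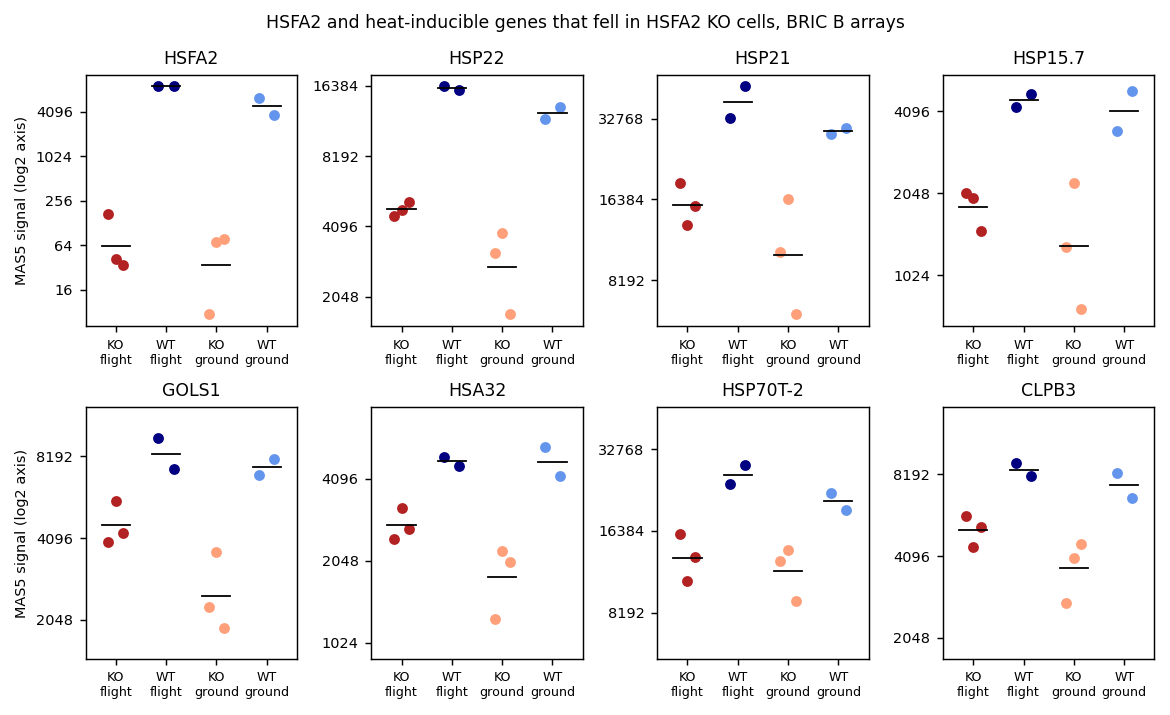
MAS5 signal (log2 axis) of HSFA2 and 7 heat-inducible genes on each BRIC B array, with HSFA2 KO left of WT cells within spaceflight and ground; each point is 1 array and the line is the mean of the log2 signals. In all 8 panels the HSFA2 KO arrays lie below the WT arrays of the same environment.

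Among the 14 tested small heat shock proteins, 3 fell (HSP22, HSP21 and the peroxisomal HSP15.7, At5g37670, −1.48 (SE 0.28)), 13 were negative and the median was −0.42. Of 25 cytosolic and organellar chaperones, 2 fell: HSP70T-2 (At2g32120), an HSP70-type chaperone, with −0.93 (SE 0.18), and CLPB3 (At5g15450), the disaggregase of plastids, with −0.88 (SE 0.18). Their median was −0.15, and 1.80% of all tested probe sets were called lower. The remaining heat shock factors gave no call: 14 of 15 in the list did not pass, HSFA2 being the exception. Of the 15, 10 were negative and 5 positive, with a median of −0.31, and 2 had an unadjusted p under 0.05. HSFA7A (At3g51910), itself a heat-inducible factor, is 1 of the 5 positive and was picked outside the rule for named genes. It had signals of 27317, 30700.5 and 28727 in HSFA2 KO cells in spaceflight, against 23391 and 28412 in WT cells. Over both environments its log2 fold change was 0.31 (SE 0.14, adjusted p = 0.227 from limma). HSP22 and HSP21 stand in 2 of these lists and are counted in both. The number of calls in these lists was lower with most single arrays left out (1 to 3 for the targets and 1 to 4 for the small heat shock proteins), and was 0 over the first-run arrays, with run as a term and without both B3 arrays.

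Of the 24 gene lists, the heat targets and the small heat shock proteins were the 2 whose medians moved most when WT cells of the other canister took the place of those in BRIC B. In the WT cells of BRIC A in spaceflight HSP22 had 3144, 5955 and 4432, which overlaps the 4525, 4821 and 5236 of HSFA2 KO cells, and on the ground 9229.5, 8679 and 7496, above the HSFA2 KO arrays. HSP21 had 12806, 19525 and 15716 there in spaceflight, which overlaps the HSFA2 KO arrays too, and 25812, 31900.3 and 19845 on the ground, which does not. Set against the WT plates of BRIC A instead of BRIC B, the median of the heat targets was −0.34 in place of −1.03, and that of the small heat shock proteins was 0.11 in place of −0.42, with 9 of 14 positive. HSFA2 was at −6.60 against those plates. These values cross canisters and carry no test.

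Some genes of protein folding and translocation in the ER rose in HSFA2 KO cells. PDIL1-2 (At1g77510), a protein disulfide isomerase, had 610.0, 725 and 789 in HSFA2 KO cells in spaceflight, against 217 and 179 in WT cells. On the ground it had 575, 783 and 342, against 85.8 and 115 (log2 fold change 2.13, SE 0.25, adjusted p = 0.00975 from limma). PDIL2-3 (At2g32920), another member of that family, had 691, 771 and 775 in HSFA2 KO cells in spaceflight, against 98.6 and 111 in WT cells, and 357, 380.0 and 434 on the ground, against 202 and 238 (log2 fold change 1.83, SE 0.36, adjusted p = 0.0322). The WT arrays of PDIL2-3 were lower in spaceflight than on the ground and the HSFA2 KO arrays higher, so that its difference was 2.83 in spaceflight and 0.83 on the ground. No probe set passed the test of a difference between the environments, and each side rests on 3 against 2 arrays. PDIL2-1 (At2g47470) rose by 1.06 (SE 0.23).

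Of 20 tested ER chaperones and folding enzymes, 3 rose (the 3 disulfide isomerases), 1 fell, 16 were positive and the median was 0.46. The one that fell was ERDJ3A (At3g08970), a J-domain co-chaperone of the ER, with −0.96 (SE 0.20), and −0.28 against the WT plates of BRIC A. In the list of unfolded protein response and ER-associated degradation 1 of 14 rose: BZIP60 (At1g42990) had 9303, 7427 and 6852 in HSFA2 KO cells in spaceflight, against 3740.3 and 2965 in WT cells, and 6178, 7705 and 4488 on the ground, against 2649.6 and 2521 (log2 fold change 1.22, SE 0.18, adjusted p = 0.0176 from limma). All HSFA2 KO arrays were above all WT arrays of BRIC B for BZIP60. The WT arrays of BRIC A had 4567, 5253 and 4630 in spaceflight and 2913, 3174 and 2883 on the ground, below the HSFA2 KO arrays of the same environment. Across environments they overlapped, since the ground HSFA2 KO array B5-2 was at 4488. Against those plates the difference of BZIP60 was 0.86. The median of that list was 0.17, and 2.38% of all tested probe sets were called higher.

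SEC61A1 (At1g29310), the pore subunit of the translocon through which new proteins enter the ER, had 1517, 1612 and 1567 in HSFA2 KO cells in spaceflight, against 476 and 257 in WT cells. On the ground it had 1036, 1015 and 915, against 402 and 448 (log2 fold change 1.69, SE 0.24, adjusted p = 0.0154 from limma). SEC24B (At3g44340), a cargo-binding coat protein of the COPII vesicles that leave the ER, had 939, 815 and 1123 in HSFA2 KO cells in spaceflight, against 267 and 392 in WT cells, and 793, 836 and 784 on the ground, against 360.2 and 326 (log2 fold change 1.39, SE 0.16, adjusted p = 0.00975). Of the small GTPases that start these vesicles, SAR1B (At1g56330) rose by 0.78 (SE 0.17) while SAR1C (At4g02080) fell by 0.77 (SE 0.13) on the log2 scale. In all, 3 of 19 translocon and COPII genes rose and 1 fell, with a median of 0.30. Against the WT plates of BRIC A the median of the folding list was 0.34 and that of the translocon list 0.12, with SEC61A1 at 1.34, SEC24B at 0.99 and PDIL1-2 at 1.59. With any 1 array left out 1 to 3 folding genes and 2 or 3 translocon genes rose. None of either list did over the first-run arrays or with run as a term, and 1 folding gene and 0 translocon genes did without both ground B3 arrays.

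**Figure D3:**
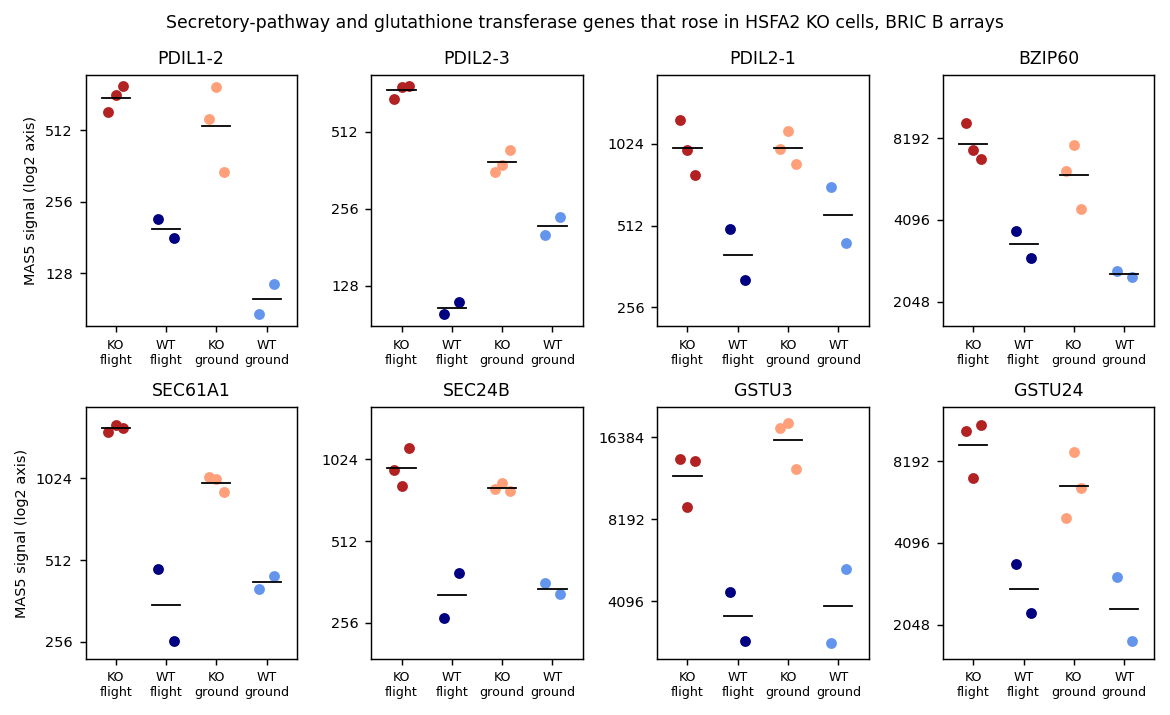
MAS5 signal (log2 axis) of 6 secretory-pathway genes and 2 tau glutathione transferases on each BRIC B array, with HSFA2 KO left of WT cells within spaceflight and ground; each point is 1 array and the line is the mean of the log2 signals. In all 8 panels the HSFA2 KO arrays lie above the WT arrays of the same environment.

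Of the tau glutathione transferases, which join glutathione to toxic or oxidized compounds, 3 rose at high signal. GSTU3 (At2g29470) had 13674, 9094 and 13390.1 in HSFA2 KO cells in spaceflight, against 4431 and 2929.5 in WT cells. On the ground it had 17769, 18429 and 12514, against 2882 and 5349.9 (log2 fold change 1.87, SE 0.24, adjusted p = 0.0122 from limma). GSTU24 (At1g17170) rose by 1.63 (SE 0.25) and GSTU1 (At2g29490) by 1.20 (SE 0.24). Of 15 tested members 3 rose and none fell (6 had an unadjusted p under 0.05), 11 were positive and the median was 0.37. Against the WT plates of BRIC A the median was 0.64, GSTU3 was at 2.10, GSTU24 at 1.28 and GSTU1 at 1.46. All HSFA2 KO arrays of these 3 genes were above all 10 WT arrays of both canisters. From 1 to 3 of them rose with any 1 array left out, and none over the first-run arrays, with run as a term or without both B3 arrays.

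The antioxidant enzymes divided. CSD1 (At1g08830), the cytosolic copper/zinc superoxide dismutase, rose by 0.92 (SE 0.15), and AOX1A (At3g22370), the mitochondrial alternative oxidase, by 0.94 (SE 0.21). CAT2 (At4g35090), the main leaf catalase that breaks down hydrogen peroxide, had 4545, 3880.2 and 3729 in HSFA2 KO cells in spaceflight, against 7298 and 9124 in WT cells, and 3381, 4435 and 3589.7 on the ground, against 9106 and 7566 (log2 fold change −1.08, SE 0.14, adjusted p = 0.0135 from limma). Thus 2 of 12 rose and 1 fell, with a median of −0.14.

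By the rule for named genes, the 15 genes that rose with the smallest p had log2 fold changes from 1.19 to 4.24. At2g47890, a putative B-box zinc-finger protein, came first, with 472, 423 and 427 in HSFA2 KO cells in spaceflight, against 25.4 and 42.5 in WT cells, and 343, 467 and 226 on the ground, against 47.8 and 28.5 (log2 fold change 3.45, SE 0.27, adjusted p = 0.00511 from limma). Its WT arrays of BRIC A, at 104 to 276, lay nearer to the HSFA2 KO arrays, and against those plates the difference was 0.89. The WT signals of At2g47890 in BRIC B were near the floor of the array, and with 32 added to every signal the log2 fold change was 2.62. WRKY70 (At3g56400), a transcription factor of salicylate-dependent defense, had 2618, 2212 and 3368 in HSFA2 KO cells in spaceflight, against 581 and 366 in WT cells, and 3235, 3056 and 2453 on the ground, against 858 and 979 (log2 fold change 2.10, SE 0.24, adjusted p = 0.00975). It was the 1 gene of 8 in the defense and salicylate list that passed, and the median of that list was 0.62. UGE5 (At4g10960), a UDP-galactose epimerase-like enzyme of sugar nucleotide metabolism, had 237, 164 and 256 in HSFA2 KO cells in spaceflight, against 10.7 and 13.5 in WT cells (log2 fold change 4.03, SE 0.45, adjusted p = 0.00975). Its WT signals were close to the floor of the array, so the fold depends on them, and with 32 added to every signal the log2 fold change was 2.34.

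Of the others named by the rule, HAT2 (At5g47370), an auxin-inducible homeodomain-leucine zipper factor, rose by 2.21 (SE 0.25), and TCP24 (At1g30210), a factor of organ growth, by 2.82 (SE 0.33), which was 1.80 with 32 added to every signal. At1g15670 (KFB01, also KMD2), a Kelch-repeat F-box protein, rose by 1.19 (SE 0.15). XTH15 (At4g14130), a xyloglucan-modifying enzyme of the cell wall, rose by 1.58 (SE 0.16) and MIZ1 (At2g41660), which is needed for roots to bend towards water, by 1.49 (SE 0.18). The transporter ABCB27 (At5g39040) rose by 2.15 (SE 0.26), a ribosomal protein L26 gene (At5g67510) by 1.40 (SE 0.17), and a putative glucosyltransferase (At2g36770) by 4.24 (SE 0.51). Its highest WT signal in BRIC B was 34.4, near the floor of the array, and with 32 added to every signal the log2 fold change of At2g36770 was 2.76. That probe set is shared among close relatives, and its identity is uncertain. Of no described function were At2g26190 (1.58 (SE 0.16)) and At3g19660 (1.31 (SE 0.15)). SEC24B and PDIL1-2 complete the 15. At2g26190 lies 4 protein-coding genes from HSFA2 on chromosome 2. It was the 1 call of the 24 tested among the 40 nearest neighbours of HSFA2, whose median was −0.016. That is about the share called over all tested probe sets (4.18%), so the count shows nothing particular to this neighbourhood. The neighbourhood was looked at after the value of At2g26190 was seen.

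The 15 genes that fell ran from HSFA2 to −1.002. At5g25450, a subunit of the mitochondrial ubiquinol-cytochrome c reductase, had high signals, with 7690.2, 7299.7 and 5725 in HSFA2 KO cells in spaceflight, against 20049.9 and 19891 in WT cells, and 4667, 6724 and 4146 on the ground, against 14364 and 15616 (log2 fold change −1.55, SE 0.17, adjusted p = 0.00975 from limma). All HSFA2 KO arrays were below the 10 WT arrays of both canisters. GATA3 (At4g34680), a zinc-finger transcription factor, had 608, 729 and 556 in HSFA2 KO cells in spaceflight, against 2178 and 2109.8 in WT cells, and 363, 494 and 498 on the ground, against 2847 and 1399 (log2 fold change −1.97, SE 0.22, adjusted p = 0.00975). At3g20340, of no described function, fell by the second largest amount of the 15, to −2.42 (SE 0.32). PMSR1 (At5g61640), a methionine sulfoxide reductase that repairs oxidized proteins, had −1.56 (SE 0.22), BZO2H3 (At5g28770), a bZIP factor of the low-energy response, had −1.25 (SE 0.17), and ABP1 (At4g02980), an auxin-binding protein, had −1.20 (SE 0.17). ATI2 (At4g00355), which binds the autophagy protein ATG8, had −1.002 (SE 0.12), and At5g06980 (LNK4), a clock-regulated gene, had −1.22 (SE 0.16). MEE59, At4g02920, At2g46550 and At1g78860 lay between −1.45 and −1.06, with HSP22 and CAT2 given above. The probe set of At1g78860 is shared among close relatives. All 29 named genes other than HSFA2 stayed under an adjusted p of 0.05 with any 1 array left out, and all 29 lost it over the first-run arrays, 26 with run as a term and 26 without both ground B3 arrays, with no change of sign. The 2 pairs of WT arrays of BRIC A that share a plate number, 1 pair in spaceflight and 1 on the ground, differed on average, second minus first run, by −1.19 to 2.73 log2 units over the 30 genes.

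Other lists held single calls. Over all tested probe sets 2.38% were called higher and 1.80% lower, so a single call describes its gene and not its list. MCCB (At4g34030), a subunit of the leucine-degrading methylcrotonoyl-CoA carboxylase, had 6870.3, 8631 and 7723 in HSFA2 KO cells in spaceflight, against 16775 and 13032 in WT cells, and 2009.9, 4659 and 4365 on the ground, against 9947 and 10294 (log2 fold change −1.25, SE 0.26, adjusted p = 0.0387 from limma). It was the 1 call among 17 genes of starvation and branched-chain amino acid breakdown, of which 14 were negative, with a median of −0.47. With any 1 array left out the list had 0 or 1 lower calls and a median from −0.60 to −0.27, and it had 0 with quantile normalization, with environment dropped, over the first-run arrays, with run as a term, with no filter and without both B3 arrays, against 5 with an intensity trend. PDC2 (At5g54960), a pyruvate decarboxylase of fermentation, fell to −1.11 (SE 0.22) as the 1 call among 13 hypoxia genes, of which 10 were negative. RPN2B (At1g04810) rose by 0.99 (SE 0.13) as the 1 call among 26 proteasome subunits, whose median was −0.07. OPR3 (At2g06050), an enzyme of jasmonate synthesis, rose by 0.71 (SE 0.16) as the 1 call among 6 jasmonate genes, and XTH24 (At4g30270) had −0.67 (SE 0.14) beside the rise of XTH15 among 20 expansins and xyloglucan enzymes. Against the WT plates of BRIC A, OPR3 was at 0.15, RPN2B at 0.36, MCCB at −0.78, PDC2 at −0.83, XTH24 at −0.76 and XTH15 at 0.56. No gene passed in the lists of starch synthesis (8 tested), starch breakdown (10), phenylpropanoids (9), aromatic amino acids and asparagine (13) or cellulose synthases (5), where 2, 2, 2, 2 and 0 had an unadjusted p under 0.05. Their genes with the smallest p were GBSS1 (granule-bound starch synthase, 1.46 (SE 0.54)), MEX1 (the plastid maltose exporter, 1.98 (SE 0.57)), CCOAOMT1 (a lignin methyltransferase, 1.25 (SE 0.40)), DHS1 (which opens the shikimate pathway, −0.70 (SE 0.17)) and CESA7 (a cellulose synthase of secondary walls, 0.78 (SE 0.55)).

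No difference between the genotype effects of the 2 environments passed the test. All 439 called probe sets had the same sign in spaceflight and on the ground, a property that the additive fit favours. Within spaceflight 346 probe sets (3.30%) met the study's thresholds with the unadjusted p, with 260 higher and 86 lower in HSFA2 KO cells, and on the ground 328 did (3.13%), with 211 higher and 117 lower. At an adjusted p under 0.05 there were 6 and 3. The spaceflight count was 542 without WT array B1 and 216 without HSFA2 KO array B5. The interaction of genotype and environment gave 0 probe sets (0%) at an adjusted p under 0.05 in limma (lowest 0.214), and 443 had an unadjusted p under 0.05, where 525 would be 5% of those tested. Without the spaceflight WT array B1 the interaction gave 6 calls and with quantile normalization 1. Among the 30 named genes the smallest interaction p was 0.055, unadjusted, for WRKY70, with 2.55 in spaceflight and 1.66 on the ground.

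**Figure D4:**
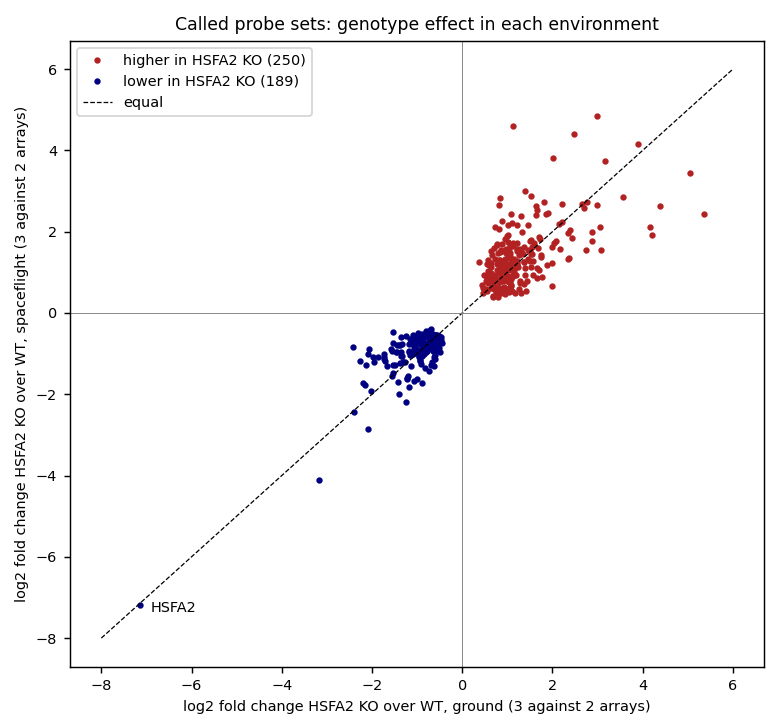
Log2 fold change of HSFA2 KO over WT cells on the ground (horizontal axis) and in spaceflight (vertical axis) for the 439 called probe sets, each from 3 against 2 arrays; the dashed line marks equal values. All points lie in the lower left or upper right field, with HSFA2 at −7.15 on the ground and −7.18 in spaceflight.

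The WT plates of BRIC A give a view of how far WT cells of another canister lay from those of BRIC B. Set against them, the same HSFA2 KO arrays gave medians of −0.64 for the genes that fell and 0.76 for those that rose, in place of −0.88 and 1.16. Measured from WT in BRIC B towards HSFA2 KO, the WT mean of BRIC A lay 36.1% of the way for the median gene that rose and 29.5% for the median gene that fell. The WT arrays of BRIC B were used to choose these genes and those of BRIC A were not, so some of this shift is built into the choice, as is the direction, since both comparisons use the same HSFA2 KO arrays. All 6 HSFA2 KO arrays lay above all 10 WT arrays in 64 of the 250, of 102 (0.972%) among all tested, and below them in 63 of the 189, of 117 (1.11%).

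The called genes were not spread evenly over the 5 chromosomes. Chromosome 4 held 14.9% of the tested probe sets with a named locus but 32.3% of those that fell (61) and 9.72% of those that rose (24). Its median log2 fold change was −0.10, against 0.06, 0.10, 0.04 and 0.07 on chromosomes 1, 2, 3 and 5, and 57.5% of its probe sets were below 0, against 41.5% to 46.2% elsewhere. Among those that fell there were GATA3, HSP22, MEE59, ATI2, CAT2, ABP1, HSP21, HSA32, SAR1C and MCCB. The shift was also measured on each array. After each probe set was centred on its mean over the 10 arrays, the median of chromosome 4 relative to all probe sets lay between −0.081 and −0.036 on the 6 HSFA2 KO arrays, between 0.069 and 0.13 on the 4 WT arrays of BRIC B and between −0.0091 and 0.089 on the 6 of BRIC A. On the BRIC A arrays A1 and A1-2 in spaceflight and A1-2 on the ground the chromosome 4 value was near 0 (−0.0091, −0.0086 and 0.014). Chromosome 2, which carries HSFA2, moved the other way from chromosome 4, from 0.0085 to 0.041 on HSFA2 KO arrays, against −0.087 to −0.012 on WT arrays of BRIC B.

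**Figure D5:**
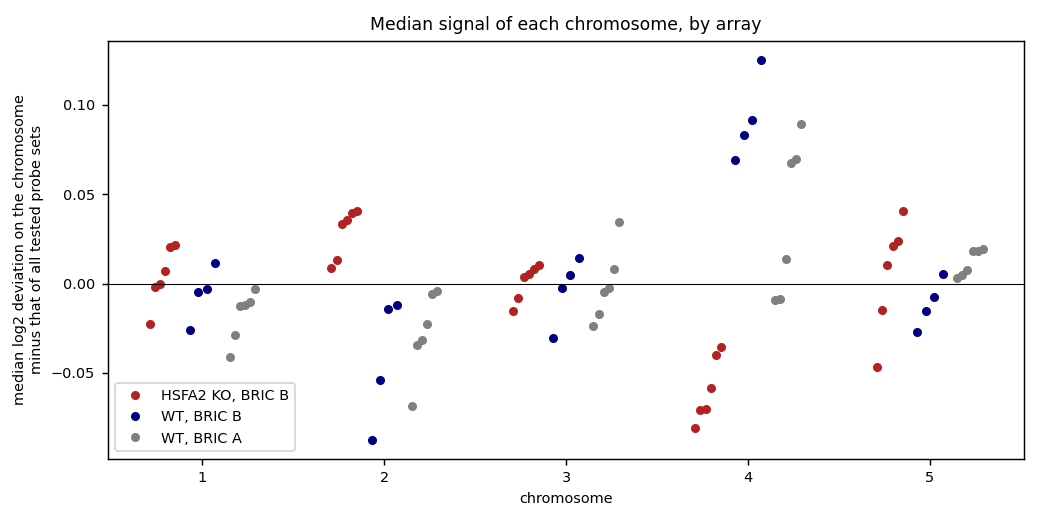
Median log2 deviation of the tested probe sets of each chromosome minus that of all tested probe sets (vertical axis) by chromosome (horizontal axis), for the 6 HSFA2 KO arrays (red), the 4 WT arrays of BRIC B (blue) and the 6 WT arrays of BRIC A (grey), sorted within each set. On chromosome 4 all HSFA2 KO arrays are below all WT arrays, and on chromosome 2 they are above them.

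The difference in this measure was −0.15 log2 units for chromosome 4 and 0.070 for chromosome 2, and each gave p = 0.01 in an exact permutation test of genotype within environment, two-sided, the smallest p that 100 arrangements allow (Benjamini-Hochberg adjusted over the 5 chromosomes, 0.025). Chromosomes 1, 3 and 5 gave p from 0.33 to 0.68 in the same exact test. The pattern was seen in these data before it was tested on them, so these p-values are not independent support for it. Each genotype was 1 culture line, so they compare these arrays and do not test the mutation. The measure is relative to all probe sets, so a shift on 1 chromosome enters the values of the others. In 8 segments of chromosome 4 with about equal numbers of genes the median was from −0.24 to −0.060 relative to all probe sets, against −0.064 to 0.17 in the 32 segments of the other chromosomes, 1 of which was below the weakest of chromosome 4. The median of chromosome 4 relative to all probe sets was −0.18 above the median signal (764 on chromosome 4) and −0.081 below it (783). It was −0.15 over the first-run arrays and −0.13 with the WT plates of BRIC A added. All of these settings reuse HSFA2 KO and WT arrays in which the shift was seen, so they are not separate support for it. The part of culture line, plate position or array batch in this shift was not tested.

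Marker genes of cell identity differed between the genotypes in part. Of 6 photosynthesis genes on the array 1 had a mean signal over 100, and the 6 summed to 213 to 561 in HSFA2 KO cells in spaceflight, against 272 to 391 in WT cells, and to 583 to 662 on the ground, against 374 to 452. The 1 over 100, RCA, had a lower mean in HSFA2 KO than in WT cells (185 and 243). The others had higher means in HSFA2 KO cells, all under 100, so the higher ground sum rests on weak signals. Of 6 xylem genes 2 had a mean over 100, and their sums overlapped in both environments. The summed signal of 8 callus and root identity genes was 2556 to 3573 in HSFA2 KO cells in spaceflight, against 3917 to 4324 in WT cells, and 2405 to 5404 on the ground, against 6383 to 7679. That sum was lower in HSFA2 KO cells in both environments, mostly through WIND1 (At1g78080), a factor that promotes callus formation. WIND1 had 1989.7, 2328 and 1770.2 in HSFA2 KO cells in spaceflight, against 2952 and 2846 in WT cells, and 854, 1126 and 3638 on the ground, against 6631 and 5602 (log2 fold change −1.26, SE 0.44, adjusted p = 0.135 from limma, which missed the threshold). Over both environments the means of LBD16 (631 in HSFA2 KO and 436 in WT cells), SCR (353 and 300), SHR (155 and 58.5), LBD18 (68.1 and 37.4) and PLT2 (33.9 and 10.0) went the other way. PLT1 (155 and 167) and LBD29 (19.3 and 59.9) were lower, and none of the 5 tested genes of this list passed. The 6 cell cycle genes summed to 1221 to 1401 in HSFA2 KO cells in spaceflight, against 1817 to 2324 in WT cells, and to 1410 to 1782 on the ground, against 1682 to 1774. Most of that sum was CDKA-1, with means over both environments of 1028 in HSFA2 KO and 1371 in WT cells. KNOLLE (70.2 and 145) and MCM5 (29.6 and 58.5) were lower too. PCNA1 (144 and 145) and CDKB2-1 (132 and 132) were alike, and CYCB1-1 (52.1 and 47.7) was slightly higher. None of the 4 tested genes of this list passed. Whether the state of the callus had a part in the gene differences above was not tested, and with RNA from whole plates fewer cells of a kind and less RNA per cell cannot be told apart.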

How the data were processed

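RNA of plate-grown cells was amplified, labelled with biotin and hybridized to Affymetrix ATH1 arrays. The intensity values are MAS5 signals on a linear scale, which the authors deposited after scaling in Affymetrix Expression Console (processing notes of the submitters), 1 column per array. Values were taken as log2 without further normalization. Probe sets with a mean over 100 on the 10 BRIC B arrays were fitted in limma 3.58.1 (R 4.3.3) with genotype and environment as additive terms, and p-values were adjusted over all 10494. The number of arrays limits the precision, with 7 residual degrees of freedom and a median residual SD of 0.40 log2 units (0.69 for probe sets under the median signal, 0.26 for the rest). Array medians ran from 73.2 to 123. The deposited table of the authors' fold changes and p-values was used for locus names and descriptions only. Symbols came from RefSeq for TAIR10.1, which listed 10188 of 10364 tested probe sets with 1 locus. Named genes are HSFA2, the 15 higher and 15 lower with the smallest p among those called at an adjusted p under 0.05 that differed by more than 1 log2 unit, with no overlap within either environment, and up to 4 passing genes of each list (up to 2 with the smallest p where none passed). The comparison, its 24 lists and its tests were chosen with earlier results of these data known. Alternatives covered scaling, offset, filter, run, repeat plates, the WT plates of BRIC A and each array left out.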

Additional observations from a re-analysis of the deposited data

Results flagged for a closer look

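In 5 of 321 tested named and listed genes (1.56%) every HSFA2 KO array lay on one side of the WT arrays in spaceflight and on the other side on the ground. Of all 10494 probe sets 120 (1.14%) did so, a share near that of these genes. HSFA4A (At4g18880), a heat shock factor linked to oxidative stress, was higher in HSFA2 KO cells in spaceflight (384, 426 and 635, against 368 and 131 in WT cells) and lower on the ground (255, 339 and 471, against 484 and 493), an interaction of 1.60 (SE 0.65, adjusted p = 0.966) in limma. CRT3 (At1g08450), a calreticulin of the ER, was lower in HSFA2 KO cells in spaceflight (107, 191 and 154, against 247 and 291 in WT cells) and higher on the ground (324, 301 and 298, against 103 and 241), with −1.84 (SE 0.54, adjusted p = 0.966). PWD (At5g26570), a starch-phosphorylating enzyme, DPE1 (At5g64860), a plastid enzyme of starch breakdown, and CESA1 (At4g32410), a cellulose synthase, were higher in HSFA2 KO cells in spaceflight and lower on the ground. Their interactions in limma were 1.02 (SE 0.31, adjusted p = 0.966), 0.69 (SE 0.33, adjusted p = 0.966) and 0.84 (SE 0.32, adjusted p = 0.966). None of the 5 passed after adjustment.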

How the results depend on the processing

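The log2 fold change of HSFA2 kept its sign and its adjusted p under 0.05 in all 23 alternatives, from −8.49 over the first-run arrays to −6.26 with 32 added, and from −7.49 to −6.66 with 1 array left out. The count at an adjusted p under 0.05 (439) was 952 with a mean signal over 200, 1030 with an intensity trend, 1081 with the WT plates of BRIC A added, 286 with the B3 arrays averaged, 9 with run as a term, 7 without both B3 arrays (an alternative chosen after seeing the data), 5 with no filter on signal, 1 over the first-run arrays and 78 to 332 with 1 array left out. The no-filter setting tests 22746 probe sets, and those without arrays rest on fewer samples. Of the 29 named genes other than HSFA2, 28 lost their call with no filter and 1 with the environment term dropped. All 439, or the 403 of them that a mean over 200 leaves, kept their sign in every alternative, which their choice on the same arrays favours. The count by the study's thresholds with the unadjusted p (374) was 23 with the adjusted p (also chosen after seeing the data), 574 with no filter and 314 to 419 with 1 array left out. The interaction gave 0, 1 with quantile normalization and 0 to 6 with 1 array left out. The spaceflight count (346) was 222 with the WT plates of BRIC A and 216 to 542 with 1 array left out, and the ground count (328) 284 to 430. No paired analysis was possible because the plates of the genotypes share no position and no replicate numbers that tie them. For probe sets under the median signal the residual SD of 0.69 leaves differences under 1 log2 unit mostly undetectable.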

Other observations

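Some called genes outside the lists share a described role, and were picked here after their values were seen, so no test of a group follows. Several act on foreign or reactive compounds and were higher in HSFA2 KO cells. UGT76B1 (At3g11340), a glucosyltransferase of the defense compound isoleucic acid, had 8248, 4942 and 10183 in HSFA2 KO cells in spaceflight, against 1487 and 1215 in WT cells, and 7143, 10064 and 10263 on the ground, against 3226 and 1808 (log2 fold change 2.19, SE 0.27, adjusted p = 0.00975 from limma). UGT74F2 (At2g43820), a salicylate glucosyltransferase, had 3.44 (SE 0.77), UGT73B4 (At2g15490) 1.87 (SE 0.35) and the cytochrome P450 CYP81D8 (At4g37370) 1.56 (SE 0.23). With 32 added to every signal UGT74F2 had 2.68. The glutathione-conjugate transporters ABCC2 (At2g34660) and ABCC4 (At2g47800) had 1.59 (SE 0.32) and 0.95 (SE 0.22), and the aldo-keto reductase AKR4C8 (At2g37760) 0.94 (SE 0.19). Beside AOX1A, the alternative NADH dehydrogenase NDA2 (At2g29990) had 0.73 (SE 0.15). Against the WT plates of BRIC A, UGT76B1 was at 1.40, UGT74F2 at 2.92, UGT73B4 at 0.93 and CYP81D8 at 0.98. ABCC2 was at 0.82 there, ABCC4 at 0.61, AKR4C8 at 0.60, NDA2 at 0.37 and AOX1A at 0.94.

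Genes of the auxin response also stood among the calls. IAA13 (At2g33310), a repressor of auxin signalling, had 3432, 1665 and 4924 in HSFA2 KO cells in spaceflight, against 1119.5 and 710.5 in WT cells, and 3005, 3125 and 3749.6 on the ground, against 578 and 1029 (log2 fold change 1.93, SE 0.32, adjusted p = 0.0206 from limma). IAA30 (At3g62100), of the same family, had 2.16 (SE 0.35), and the homeodomain-leucine zipper genes HAT1 (At4g17460) and HAT3 (At3g60390) had 0.98 (SE 0.16) and 2.31 (SE 0.40) beside HAT2. With 32 added to every signal HAT3 had 1.87. Of J-domain genes outside the lists, At1g71000 had 1911, 633 and 1017 in HSFA2 KO cells in spaceflight, against 5995 and 10048 in WT cells, and 975, 1405 and 547 on the ground, against 2720.0 and 5503 (log2 fold change −2.47, SE 0.41, adjusted p = 0.0206), and At4g28480 had −1.37 (SE 0.23). At4g16660, described as HSP-like, had 228, 232 and 165 in HSFA2 KO cells in spaceflight, against 7.15 and 7.21 in WT cells, and 298, 48.8 and 302 on the ground, against 31.9 and 13.4 (log2 fold change 3.91, SE 0.60, adjusted p = 0.0189). Those WT signals were near the floor of the array, and with 32 added to every signal the log2 fold change of At4g16660 was 2.27. Against the WT plates of BRIC A, At4g16660 was at 1.32, At1g71000 at −1.48 and At4g28480 at −0.76.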
